A study of Homo sapiens with 24 samples.

Results

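Antisense transcripts are RNAs read from the strand opposite another gene, and the 300 with the most reads in spheroids of the human squamous carcinoma cell lines FaDu and SAS are described here. The members were chosen by their counts. Among the genes that GENCODE release 29 types as antisense, with CIRBP-AS1 set aside, raw counts were summed over all 24 libraries and the 300 highest sums were taken. The count table held 5429 such genes among 57500 genes in all, and 4264 of the 5429 had at least 1 count. The sums include the heated libraries, so a transcript that was abundant only after heating could become a member, and 274 of the 300 were also among the 300 highest over the 6 control libraries alone.

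An antisense gene can lie head-to-head with the gene on the other strand, overlap its start or its end, or sit wholly inside it. Some antisense RNAs act on the gene they overlap, through chromatin, through collision of polymerases or by pairing with its RNA, as KCNQ1OT1 does when it silences neighbouring genes on the paternal chromosome, while many have no known role. AFAP1-AS1 is known as a transcript raised in carcinomas of several organs, and heat is known to activate HSF1, a transcription factor that binds inverted GAA repeats near chaperone genes.

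FaDu comes from a carcinoma of the hypopharynx and SAS from a carcinoma of the tongue, and both were grown as spheroids in agarose-coated wells before total RNA was sequenced. Each type had 4 groups of 3 replicates. Control spheroids were kept at 37 °C, RT spheroids were irradiated with 7 Gy (FaDu) or 10 Gy (SAS), HT spheroids were heated to 42.5 °C for 60 min, and HT + RT spheroids received both treatments. RNA was taken 0.5 h after treatment, and the groups were set up to compare the response to heat, to irradiation and to both in each type. Library totals ran from 15203484 to 29452514 counts with a median of 18378943. Levels are given in CPM, the standard unit in which the reads of a gene are divided by the scaled total of its library. The replicates of a type came from independent experiments, by the methods of the study, which do not say whether a number marks the same experiment in each group. In bulk RNA, fewer cells with a transcript and less of it per cell cannot be told apart.

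The spheroids carried epithelial markers. The 10 squamous markers summed to 10768 ± 172 CPM (SD, 3 replicates) in the FaDu controls and 4901 ± 199 CPM in the SAS controls, with KRT17 the most abundant in both, and 0 of the 10 were at 0. The 5 leukocyte markers summed to 5.57 ± 0.635 CPM and 8.15 ± 1.35 CPM, nearly all of it CD14, with CD3E at 0 in every FaDu control and PTPRC at 0 in every SAS control. The 4 endothelial markers summed to 8 ± 0.627 CPM and 16.3 ± 5.02 CPM, mostly CDH5, with KDR at 0 in the controls of both types. The 6 fibroblast markers summed to 41.9 ± 5.3 CPM in the FaDu controls, where LUM was at 0, and to 1.98 ± 0.386 CPM in the SAS controls. In heated SAS spheroids that sum was 24.7 ± 7.38 CPM without and 25.2 ± 0.504 CPM with irradiation, and COL1A1 gave 23.9 and 24.6 CPM of it.

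How reads are shared between strands decides what these counts can show. Of the 323 antisense genes with no exon base outside the exons of genes on the other strand, 318 (98.5%) had 0 counts in all libraries, and where the gene on the other strand had over 20000 counts it was 130 of 132 (98.5%). With 1 to 50 exon bases outside the exons of any other gene, here called countable bases, and the same partner threshold, 1 of 33 (3.03%) had 0 counts, and with over 200 such bases it was 29 of 1228 (2.36%). Reads over exons of both strands were therefore not counted for the antisense gene. Whether strand was used in counting is not given in the sources used here, so the strand of a read in a countable base is not known. Reads in countable bases that lie inside the body of the gene on the other strand cannot be told apart from unspliced RNA of that gene. Of the members, 79 had all countable bases inside such a body, 148 some of them and 73 none. The median member had 1896 countable of 2357 exon bases, and 2 members had under 50.

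**Figure D1:**
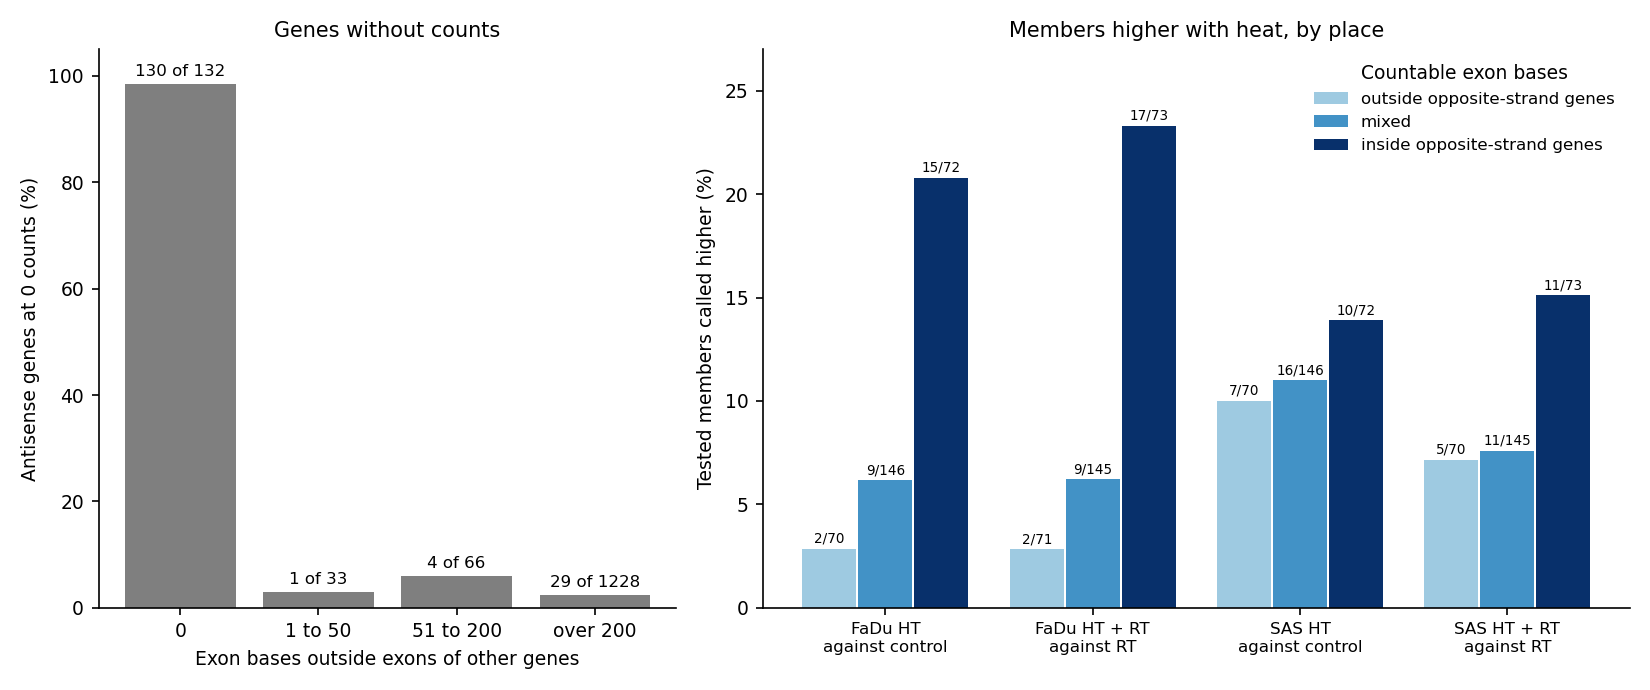
Left, the percent of antisense genes with 0 counts by their exon bases outside exons of other genes, for genes whose partner had over 20000 counts. Right, the percent of tested members called higher in each of 4 heat comparisons by where their countable bases lie; the shares inside opposite-strand genes are 20.8% and 23.3% in FaDu and 13.9% and 15.1% in SAS, with members ranked by all libraries, heated ones included.

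Most members had a protein-coding gene on the other strand, called the partner. It was taken as the one with the longest overlap of gene bodies or, without overlap, the nearest start within 5 kb in head-to-head order. A partner was found for 293 of the 300. The starts of the pair overlapped for 109 members, the ends for 70, the member lay inside its partner for 68 and spanned it for 20, and 26 were head-to-head. Names came from a neighbouring gene or a known role for 151 members and from a genomic clone for 149. A single exon block made up 70 members. Members came from every chromosome except Y, with 27 from chromosome 1 and 3 from X.

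Count sums fell steeply along the ranking. FGD5-AS1 had 86034 counts, ZFAS1 55383, AFAP1-AS1 29519, SNHG7 29218 and OTUD6B-AS1 16398. Next came PSMA3-AS1 with 16002, AL118506.1 with 14726, THAP9-AS1 with 12505, GPRC5D-AS1 with 10615 and NUTM2A-AS1 with 9961. These 10 held 29.2% of the members' counts, against a median member sum of 1692. All 300 held 961582 of the 1366360 counts of antisense genes (70.4%) and 0.208% of all counts. The last members inside the threshold were AC114947.2 with 870, AL356488.3 with 868 and AC026740.1 with 864 counts, and the first genes outside it were AC002480.1 with 863, AC012640.2 with 853 and LPP-AS2 with 851. Per kilobase of exon the order of the leading pair changed, with ZFAS1 at 54.1 CPM per kb and FGD5-AS1 at 37.4 CPM per kb over the 24 libraries.

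**Figure D2:**
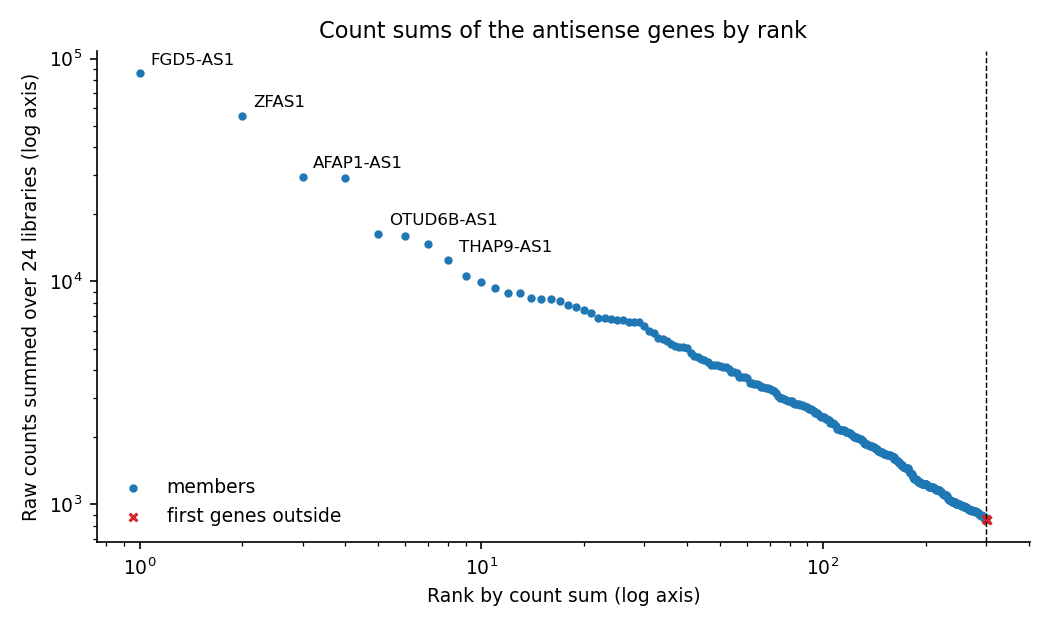
Count sum over 24 libraries (log axis) of the antisense genes against their rank (log axis), with the threshold at rank 300 as a dashed line and the first 3 genes outside it as crosses. Sums run from 86034 at rank 1 to 864 at rank 300, and the crosses start at 863.

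The sums of the members and the group with the highest mean describe the choice of members, since the heated libraries helped to set it. The CPM of all members summed to 1877 ± 88.2 in FaDu controls, 1934 ± 117 after RT, 2126 ± 85.3 after HT and 2121 ± 110 after HT + RT. In SAS the sums were 2015 ± 89.6, 2075 ± 43.2, 2221 ± 45.3 and 2282 ± 49.1 in the same order. The highest of the 8 group means was a heated group for 183 of the 300 members.

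FaDu replicate 1 stood apart in all 4 FaDu groups. A pair of libraries of a group that differed by sampling alone would give a mean chi-square per gene near 1. FaDu replicate 1 against replicate 2 or 3 gave 15.1 to 22.0, replicate 2 against 3 gave 3.51 to 5.09, and SAS pairs gave 4.61 to 11.8. Over the members alone the FaDu values were 3.61 to 5.54 with replicate 1 and 1.55 to 3.52 without it. Since the replicate stood apart in control and treated groups alike, the FaDu counts after HT and for HT + RT over RT are also given with it left out of both groups, an alternative chosen after seeing the data.

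After heating, the transcript inside FKBP4 went from almost no reads to several CPM in both types. AC005841.1 lies on the other strand of FKBP4, the gene of an HSP90 co-chaperone. It became a member through the heated libraries, so its rise helped to select it. It read 0.0526, 0.255 and 0.123 CPM in the FaDu controls and 13.4, 9.6 and 12.1 CPM after HT. In SAS it read 0.16, 0.057 and 0.176 CPM in controls and 14.6, 6.53 and 8.5 CPM after HT. Every heated library was far above every control, and the log2 fold change, heated over control, was 6.31 (SE 0.33, adjusted p 7.79e-06) in FaDu and 6.16 (SE 0.46, adjusted p 1.81e-06) in SAS. Irradiated spheroids gave the same order, with 0.0514, 0.0532 and 0 CPM after RT and 14.9, 12.8 and 13.1 CPM after HT + RT in FaDu. The FaDu RT libraries held 2 counts and the HT + RT libraries 876, a ratio of 431 with a 95% counting interval of 119 to 3567, which covers counting error only. In SAS the fold change of HT + RT over RT was 6.05 (SE 0.42, adjusted p 1.17e-06). FKBP4 rose by 1.28 in FaDu and 2.09 in SAS after HT. Only 2 of the 287 exon bases of AC005841.1 are countable, both inside FKBP4, so unspliced FKBP4 RNA cannot be told apart from it.

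AP4B1-AS1 rose in both types and from a lower level in SAS. Its counts came mostly from heated libraries, so its rise helped to select it. It overlaps the start of PTPN22, a phosphatase gene of lymphocytes that was below the count filter here, and is named after AP4B1, a subunit of an adaptor complex for vesicle coats. All of its countable bases lie inside opposite-strand genes, whose unspliced RNA cannot be told apart from it. FaDu controls read 0.473, 0.765 and 1.19 CPM and FaDu HT libraries 2.73, 3.39 and 5.32 CPM. SAS controls read 0.0534, 0.057 and 0.117 CPM and SAS HT libraries 9.72, 4.79 and 4.55 CPM. The groups did not overlap in either type. The fold changes were 2.22 (SE 0.38, adjusted p 0.00489) and 6.28 (SE 0.52, adjusted p 4.39e-06), and after irradiation 3.11 (SE 0.42, adjusted p 0.00166) and 3.93 (SE 0.46, adjusted p 7.5e-05). The difference between the types, FaDu minus SAS, was -4.03 (SE 0.82, adjusted p 0.00825) for HT and -0.85 (SE 0.76, adjusted p 0.622) in irradiated spheroids.

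RUSC1-AS1 changed while its partner did not pass the threshold. It overlaps the end of FDPS, the gene of farnesyl diphosphate synthase in the cholesterol pathway. Of its countable bases 90.6% lie inside opposite-strand genes, and reads there cannot be told apart from unspliced RNA of those genes. FaDu controls read 5.84, 5.76 and 4.77 CPM and HT libraries 12.6, 14.4 and 21.4 CPM, a log2 fold change of 1.59 (SE 0.21, adjusted p 0.00154). SAS controls read 10.7, 12.7 and 12.5 CPM and HT libraries 43.1, 20 and 23.2 CPM, a change of 1.27 (SE 0.24, adjusted p 0.0022). SAS HT replicate 1 was the highest library by far, and without it the SAS change was 0.86 and not called. HT + RT over RT gave 1.98 (SE 0.18, adjusted p 0.000238) in FaDu and 1.29 (SE 0.13, adjusted p 2.23e-05) in SAS. FDPS changed by 0.08 and 0.14 after HT.

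AC073957.3 rose in both types. It lies in SUN1, which codes for a protein of the inner nuclear membrane, and rose in SAS from 2.4, 2.51 and 3.87 to 17.1, 8.64 and 10 CPM, by 2.03 (SE 0.27, adjusted p 0.000236). In FaDu it went from 2.42, 3.37 and 4.19 to 4.71, 5.95 and 9.22 CPM, by 1.01 (SE 0.29, adjusted p 0.0457). That FaDu call was lost with no filter (0.98) and without FaDu HT replicate 2 (1.09), FaDu HT replicate 3 (0.69), FaDu Control replicate 1 (0.82), FaDu Control replicate 2 (1.01) or FaDu Control replicate 3 (1.22). SUN1 changed by -0.13 in FaDu and -0.14 in SAS. All countable bases of AC073957.3 lie inside opposite-strand genes, whose unspliced RNA cannot be told apart from it.

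AZIN1-AS1 and FAM83A-AS1 are also among the 7 members called higher with heat in both types, with and without irradiation. AZIN1-AS1 overlaps the start of AZIN1, an inhibitor of antizyme that keeps polyamine synthesis running. It read 1.6, 1.03 and 1.64 CPM in SAS controls and 5.26, 7.06 and 5.25 after HT, a log2 fold change of 2.04 (SE 0.24, adjusted p 7.72e-05). In FaDu it read 1.73, 3.37 and 3.37 and 4.94, 7.56 and 6.69 CPM, a change of 1.19 (SE 0.28, adjusted p 0.0188). HT libraries were above controls in both types. The FaDu call after HT was lost without FaDu HT replicate 2 (1.06), FaDu HT replicate 3 (1.16) or FaDu Control replicate 1 (0.94), and the call of FaDu HT + RT over RT, 1.31, was lost without FaDu HT + RT replicate 2 (1.20) or FaDu HT + RT replicate 3 (1.25). FAM83A-AS1, chosen after its values were seen, rose by 1.25 in FaDu and 1.16 in SAS after HT. These calls were lost without FaDu HT replicate 3 (0.91) or FaDu Control replicate 3 (1.22) in FaDu and without SAS Control replicate 2 (0.97) in SAS. Its partner FAM83A, which codes for a signalling scaffold, changed by 0.06 in FaDu and 1.32 in SAS. The difference between the types of the partner FAM83A was -1.23.

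**Figure D3:**
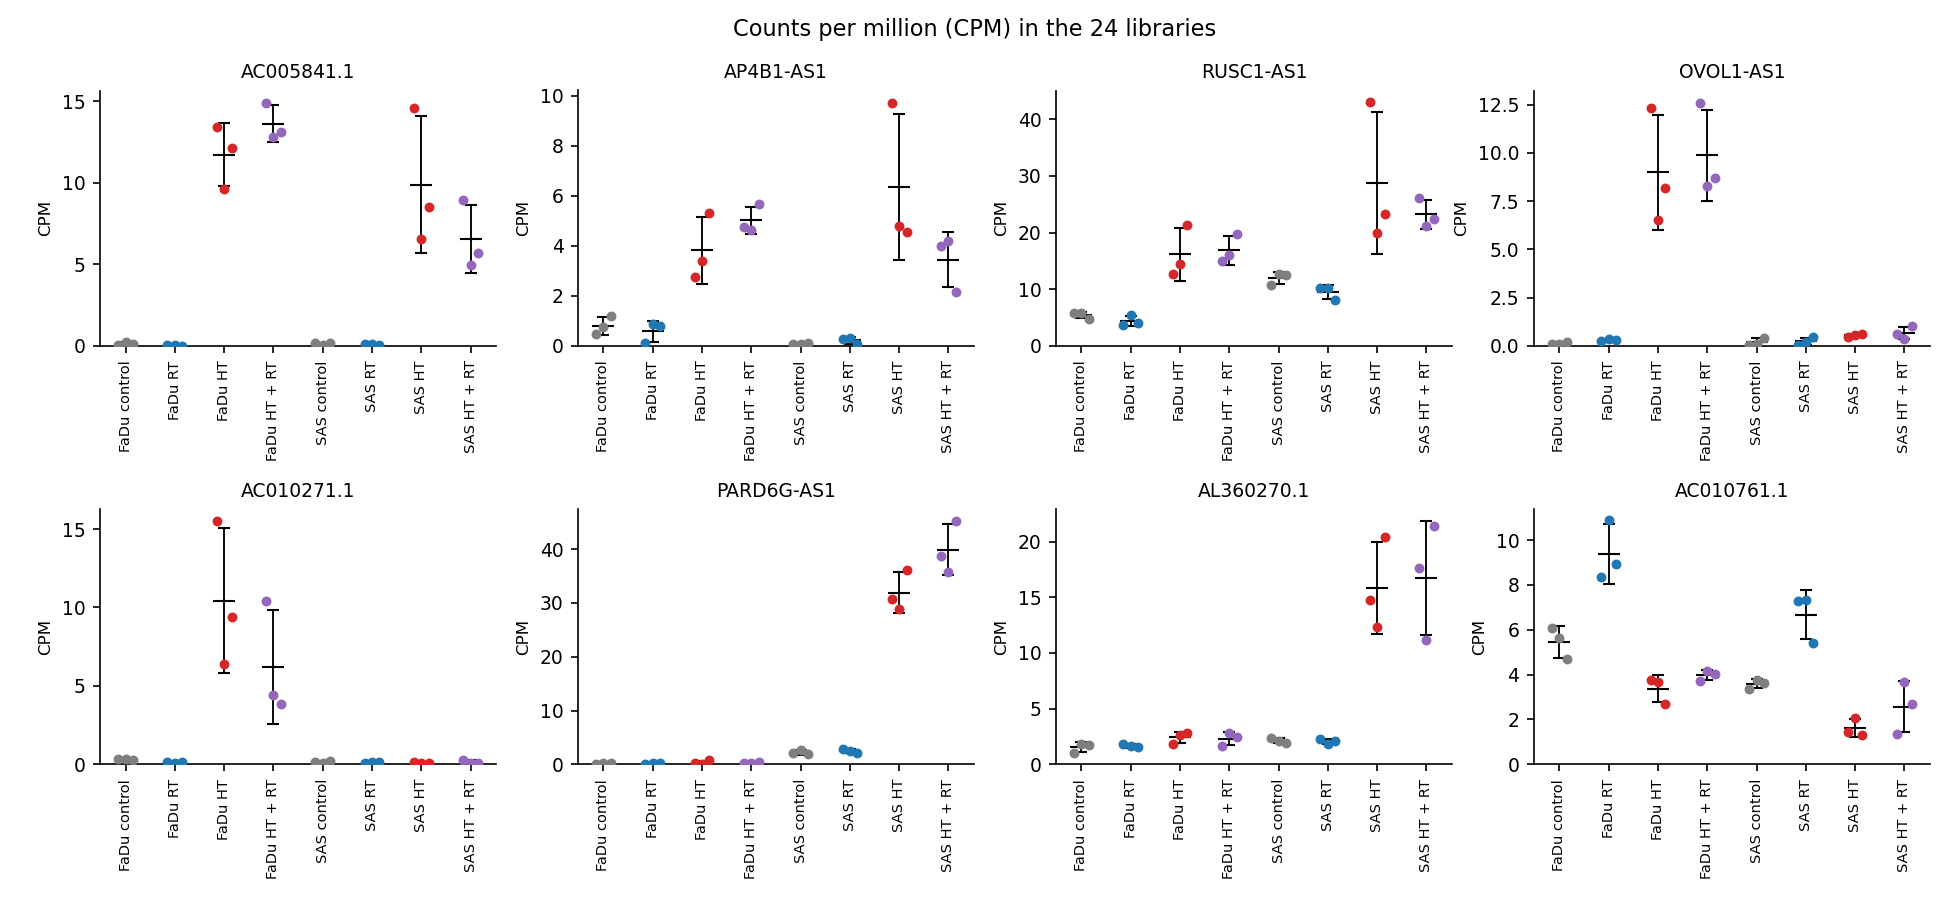
Level in CPM (linear axis) of 8 members in each of the 24 libraries, by group, as points with the group mean and SD. AC005841.1, AP4B1-AS1 and RUSC1-AS1 are higher in heated groups of both types, OVOL1-AS1 and AC010271.1 in FaDu, and PARD6G-AS1 and AL360270.1 in SAS. In SAS, OVOL1-AS1 is also above controls after HT, at levels below the count filter.

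FaDu spheroids raised a pair of transcripts that stayed low in SAS. OVOL1-AS1 lies inside OVOL1, the gene of a zinc-finger factor of epithelial differentiation. It read 0.105, 0.102 and 0.206 CPM in FaDu controls and 12.3, 6.52 and 8.17 CPM after HT, and in SAS 0.0534, 0.114 and 0.41 and 0.463, 0.58 and 0.595 CPM. The FaDu groups were far apart. In SAS every HT library was also above every control, but OVOL1-AS1 was below the count filter there. The FaDu log2 fold change was 5.93 (SE 0.39, adjusted p 3.7e-05), and HT + RT over RT gave 4.97 (SE 0.28, adjusted p 1.82e-05). OVOL1 itself rose in both types, by 2.86 in FaDu and 1.57 in SAS. AC010271.1 lies inside SERTAD3, the gene of a transcriptional co-regulator. It read 0.315, 0.357 and 0.247 CPM in FaDu controls and 15.5, 6.42 and 9.38 CPM after HT, and in SAS 0.16, 0.057 and 0.234 and 0.174, 0.0527 and 0.0541 CPM. HT libraries were above controls in FaDu by 5.09 (SE 0.42, adjusted p 0.000118), and the SAS groups overlapped. SERTAD3 rose by 1.32 in FaDu and changed by -0.62 in SAS. All countable bases of OVOL1-AS1 and AC010271.1 lie inside opposite-strand genes, whose unspliced RNA cannot be told apart from them.

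The difference between the types was tested for both. Its size rests on few SAS counts, 10 over controls and 30 over HT libraries for OVOL1-AS1 and 8 and 5 for AC010271.1. Both transcripts became members through heated libraries, whose values these tests use as well. For OVOL1-AS1, FaDu minus SAS was 4.45 (SE 0.91, adjusted p 0.00826) for HT, and without SAS Control replicate 3 it was 3.28 and not called. In irradiated spheroids it was 3.48 (SE 0.78, adjusted p 0.0128), and without SAS RT replicate 3 it was 2.70 and not called. For AC010271.1 the values were 5.79 (SE 1.13, adjusted p 0.00608) and 5.72 (SE 1.26, adjusted p 0.0109). They were not called without SAS Control replicate 3 (5.33) and SAS RT replicate 2 (5.65). The partners differed in the same direction after HT, OVOL1 by 1.32 and SERTAD3 by 1.97.

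Other transcripts that rose in FaDu lie inside a gene of the other strand, whose unspliced RNA cannot be told apart from them. The sums that chose these members and those named next include heated libraries. Of the 27 members called in FaDu after HT, 13 were also called with members ranked by control libraries. KCNQ1OT1, the imprinted transcript inside the potassium channel gene KCNQ1, read 1.05, 2.14 and 1.85 CPM in FaDu controls and 4.13, 7.04 and 11.2 CPM after HT. All HT libraries were above all controls, by 2.16 (SE 0.39, adjusted p 0.00663), and KCNQ1 changed by -0.05. Its rise of HT + RT over RT, 1.32, was not called without FaDu HT + RT replicate 3 (1.26). SAS changed by 0.10, and the difference between types, 2.09, did not pass the threshold. AC003681.1, in the phosphoinositide phosphatase gene MTMR3, read 1.58, 1.33 and 2.14 CPM in FaDu controls and 4.07, 5.11 and 8.48 CPM after HT. These groups were apart as well, with a log2 fold change of 1.82 (SE 0.32, adjusted p 0.00573) against -0.11 for MTMR3. The difference between types was 2.26 (SE 0.48, adjusted p 0.0107).

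AL357060.1 and NKILA also rose in FaDu. AL357060.1 overlaps the start of TNFAIP3, which codes for the A20 protein that limits NF-kappaB. It read 1.1, 1.07 and 0.822 CPM in FaDu controls and 4.77, 3.55 and 6.58 CPM after HT, a log2 fold change of 2.34 (SE 0.29, adjusted p 0.00103) with no overlap. TNFAIP3 changed by 0.98 after HT in FaDu and was called higher in SAS after HT, by 1.23, and in irradiated spheroids, by 1.45 in FaDu and 1.51 in SAS. In irradiated SAS spheroids AL357060.1 was called higher as well, by 1.01, a call lost with DESeq2 (1.02), with no filter (0.99) and without SAS HT + RT replicate 1 (0.97), SAS HT + RT replicate 2 (0.92), SAS RT replicate 1 (0.83) or SAS RT replicate 2 (0.85). NKILA, known for binding the NF-kappaB complex and named here after its values were seen, read 0.894, 1.63 and 1.4 CPM in FaDu controls and 2.73, 3.23 and 2.95 CPM after HT. Every HT library was above every control, by 1.20 (SE 0.26, adjusted p 0.0143), a call lost without FaDu HT replicate 2 (1.14), FaDu Control replicate 1 (0.99) or FaDu Control replicate 3 (1.25). In FaDu HT + RT over RT it rose by 1.44. SAS changed by -0.27 after HT, and the difference between types was 1.49 and not called.

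Across FaDu, 26 of the 288 members tested after HT were called higher, which means an adjusted p under 0.05 in edgeR and a log2 fold change over 1. Among all genes tested 4.29% were called higher. A single member was lower, against 0.674% of all genes. In irradiated FaDu spheroids 28 of 289 were higher, against 4.76%, and 4 were lower, against 0.629%. With members ranked by control libraries alone, 7 (2.45%) were lower there. The share was 9.03% of members after HT, 17.1% of the other antisense genes tested, 7.45% of long intergenic RNAs and 2.81% of protein-coding genes. The median change was 0.187 over the members and 0.006 over all genes. When members were ranked by control libraries alone, 14 were called after HT in place of 27, 13 of them shared, and the share called higher was 4.18% of those tested, near the 4.29% of all genes. It was 4.55% when they were ranked by RT libraries, a ranking added after seeing the data whose libraries are in neither group, and 4.9% in irradiated spheroids when ranked by controls. The share of FaDu members called higher, above that of all genes, was therefore not kept once heated libraries were left out of the ranking. With FaDu replicate 1 left out of both groups, 30 were called, 23 of them shared with the 27. FaDu HT replicate 3 was the highest of the 3 replicates for 15 of the 26 higher members, and without it 20 members were called. The 12 members not tested after HT were below the count filter.

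SAS spheroids raised PARD6G-AS1 steeply after heating. It overlaps the end of PARD6G, which codes for a cell polarity protein, and 74.2% of its countable bases lie inside opposite-strand genes. SAS controls read 2.03, 2.68 and 1.93 CPM and HT libraries 30.7, 28.8 and 36.2 CPM, and RT libraries read 2.76, 2.56 and 2.07 against 38.8, 35.8 and 45.2 CPM in HT + RT libraries. Heated and unheated libraries were far apart. The log2 fold changes were 3.85 (SE 0.16, adjusted p 6.66e-09) and 4.01 (SE 0.14, adjusted p 3.44e-09). In FaDu it was below the count filter, with 0, 0.306 and 0.206 CPM in controls and 0.174, 0 and 0.737 CPM after HT. PARD6G moved the same way in SAS, from 13.5, 11.2 and 14.5 to 58.9, 37.6 and 50.1 CPM, and the other way in FaDu, from 3.05, 4.44 and 3.74 to 1.57, 2.24 and 2.37 CPM. Its fold change was 1.91 in SAS and -0.83 in FaDu, where it did not pass the threshold. ADNP2, which ends 401 bases before PARD6G-AS1 on the same strand, changed by 0.23. The difference between types for PARD6G-AS1 was -3.35 (SE 0.58, adjusted p 0.00229) in irradiated spheroids and -3.01 (SE 1.06, adjusted p 0.133) for HT.

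AL360270.1 rose in SAS together with its partner. It overlaps the end of LRIF1, the gene of a chromatin protein, and all of its countable bases lie outside LRIF1. The strand of reads there is not known, so their place does not show which of these genes they came from. SAS controls read 2.35, 2.11 and 1.88 CPM and HT libraries 14.8, 12.3 and 20.4 CPM, with every HT library above every control. The log2 fold change was 2.90 (SE 0.22, adjusted p 1.59e-06) in SAS and 0.67 (SE 0.29, adjusted p 0.162) in FaDu, a difference of -2.21 (SE 0.38, adjusted p 0.00243). LRIF1 rose in SAS from 63.1, 56.9 and 59.7 to 206, 207 and 221 CPM, by 1.82. AC243772.2 overlaps the end of FCGR1A, the gene of an Fc receptor of monocytes. Heated libraries were in the sums that chose it, and 83.2% of its countable bases lie inside opposite-strand genes. It went in SAS from 0.962, 0.399 and 0.703 to 10.5, 7.69 and 8.17 CPM, by 3.65 (SE 0.27, adjusted p 1.47e-06). FCGR1A rose by 3.49 there, and so did the histone gene HIST2H2BF, inside which AC243772.2 lies on the same strand, by 1.90. The groups were apart for these genes, and the difference between types for AC243772.2 was -2.45 (SE 0.51, adjusted p 0.00898) for HT. In irradiated spheroids that difference, -1.87, was not called without FaDu RT replicate 2 (-1.38). There it was also called higher in FaDu, by 1.48, a call lost without FaDu HT + RT replicate 2 (1.44) or FaDu RT replicate 3 (1.31).

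HOXC13-AS, ZNF436-AS1 and INTS6-AS1 overlap the start of their partner and rose in SAS. HOXC13-AS pairs with HOXC13, a homeobox factor of hair and nail, and went from 3.21, 2.4 and 3.81 to 12.1, 10.6 and 13.2 CPM. ZNF436-AS1 pairs with the zinc-finger gene ZNF436 and went from 1.18, 2.22 and 1.93 to 5.5, 3.64 and 3.63 CPM. INTS6-AS1 pairs with INTS6, a subunit of the Integrator complex that ends transcripts, and went from 1.34, 2.17 and 1.41 to 4.74, 4.85 and 6.01 CPM. All HT libraries were above all controls for each of them. The log2 fold changes were 1.93 (SE 0.18, adjusted p 1.31e-05), 1.26 (SE 0.28, adjusted p 0.0061) and 1.67 (SE 0.24, adjusted p 0.000341). HOXC13 rose by 2.13 and ZNF436 by 1.67, while INTS6 changed by -0.05. In irradiated spheroids the difference between types, FaDu minus SAS, was -2.45 for HOXC13-AS, -1.76 for ZNF436-AS1 and -1.88 for INTS6-AS1, each past the thresholds. For HT it was -2.01 for ZNF436-AS1, -0.98 and not called for INTS6-AS1, which changed by 0.66 in FaDu, and -1.56 for HOXC13-AS, a call lost without FaDu HT replicate 2 (-1.46), FaDu Control replicate 2 (-1.38), FaDu Control replicate 3 (-1.38), SAS HT replicate 3 (-1.53) or SAS Control replicate 2 (-1.40).

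The starts of several of these transcripts are in RefSeq (build GRCh38.p14), which matched 107 members with 135 windows of 300 bases around the start. Windows were searched on both strands for GAANNTTC and TTCNNGAA, the pair of inverted repeats that HSF1 is known to bind in longer arrays, and the forms may overlap. GAANNTTC was in 9 member windows (6.67%) and in 6.77% of all 35116 windows, and TTCNNGAA in 8 (5.93%) and in 7.74%. Their 3-unit form was in the window of 1 member, TSPEAR-AS2 (0.741%), and in 0.49% of all. Of the members described above as called higher with heat, INTS6-AS1 had a match. AP4B1-AS1, RUSC1-AS1, OVOL1-AS1, NKILA and ZNF436-AS1 had a window without a match. Others, among them AC005841.1, AC010271.1, PARD6G-AS1, AL360270.1 and HOXC13-AS, had no window and were not searched. Of the members with the highest count sums FGD5-AS1, ZFAS1 and GPRC5D-AS1 had a match. The bases before the start are shown for 4 members that rose with heat, with the match in capitals, to let the promoter with a match be read beside those without. They are chr13:51453208-51453340 on the plus strand for INTS6-AS1, whose RefSeq start differs from that of GENCODE, chr11:65790869-65791118 on the minus strand for OVOL1-AS1, chr20:57709933-57710182 on the plus strand for NKILA and chr1:23368721-23368970 on the plus strand for ZNF436-AS1. Each is the longest stretch before the start outside every exon of GENCODE, and each lies in an intron on the other strand, of INTS6, OVOL1, PMEPA1 and ZNF436, and the first also in an intron of INTS6-AS1.
INTS6-AS1: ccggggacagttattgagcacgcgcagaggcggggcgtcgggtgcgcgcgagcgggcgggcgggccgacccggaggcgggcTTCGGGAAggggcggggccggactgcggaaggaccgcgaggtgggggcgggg
OVOL1-AS1: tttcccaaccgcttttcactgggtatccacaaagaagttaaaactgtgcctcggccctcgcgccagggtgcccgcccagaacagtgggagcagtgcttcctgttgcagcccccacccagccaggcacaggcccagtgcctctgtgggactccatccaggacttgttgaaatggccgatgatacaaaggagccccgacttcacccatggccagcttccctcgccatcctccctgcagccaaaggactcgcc
NKILA: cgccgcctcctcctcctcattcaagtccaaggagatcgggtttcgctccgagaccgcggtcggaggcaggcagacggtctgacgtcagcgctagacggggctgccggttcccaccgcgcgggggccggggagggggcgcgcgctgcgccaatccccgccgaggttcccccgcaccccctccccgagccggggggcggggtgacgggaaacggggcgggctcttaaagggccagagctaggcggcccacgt
ZNF436-AS1: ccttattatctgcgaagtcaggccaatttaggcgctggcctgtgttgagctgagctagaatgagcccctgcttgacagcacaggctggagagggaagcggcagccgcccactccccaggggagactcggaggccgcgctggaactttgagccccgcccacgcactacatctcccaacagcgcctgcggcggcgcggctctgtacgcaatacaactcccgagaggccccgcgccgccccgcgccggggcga
The match of INTS6-AS1 began 56 bases before its start. A match is a description of letters and no site, and a window without one says only that these letters are not in it.

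Members with high counts also changed in SAS. THAP9-AS1, which starts beside the transposase-like gene THAP9, went from 23.2, 24.2 and 22 to 49.1, 44.9 and 47 CPM. AL118506.1, which spans ABHD16B, went from 14.4, 19.4 and 17.5 to 47.3, 50.1 and 50.7 CPM. The groups were apart, with log2 fold changes of 1.02 (SE 0.08, adjusted p 2.42e-06) and 1.54 (SE 0.11, adjusted p 9.37e-07). The call of THAP9-AS1 was lost without SAS HT replicate 1 (0.99) or SAS Control replicate 3 (0.99). Irradiated spheroids gave 1.10 and 1.74 in SAS. AL118506.1 was not called in FaDu after HT, at 1.0 (SE 0.13, adjusted p 0.0014), and rose in irradiated FaDu spheroids from 13.4, 13.7 and 15 to 45.3, 53.1 and 55.9 CPM, by 1.90. ZFAS1, a host of small nucleolar RNAs, rose in FaDu from 84.1, 82.7 and 80.9 to 120, 115 and 110 CPM and in SAS from 114, 123 and 113 to 156, 171 and 175 CPM. Its groups were apart too, but at 0.50 and 0.53 it stayed under the fold threshold.

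In SAS, 33 of 288 members tested were called higher after HT, against 5.31% of all genes tested, and 2 were lower, against 0.713%. HT + RT over RT gave 27 of 288 higher, against 5.71%, and 5 lower, against 0.893%. The share higher after HT was 11.5% of members, 12.1% of the other antisense genes, 10.9% of long intergenic RNAs and 3.9% of protein-coding genes. The median change was 0.018 over the members and 0.003 over all genes. SAS HT replicate 1 was the highest of the 3 replicates for 21 of the 33 higher members, and without it 27 members were called in place of 35. Ranking by control libraries gave 26 called, all of them among the 35, with 8.25% of those tested higher, and ranking by RT libraries 7.93%. In irradiated spheroids ranking by controls gave 5.84% higher, near the share of all genes. HT + RT against control shares its controls with the comparisons of HT and RT. In it 32 of 290 members were called in FaDu, against 5.72% of all genes in either direction. In SAS it was 31 of 285, against 6.36%. Ranked by control libraries, 18 members were called in FaDu in place of 32.

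Few members fell with heat. AC010761.1, inside the ribosomal protein gene RPL23A, read 3.37, 3.76 and 3.63 CPM in SAS controls and 7.28, 7.31 and 5.4 CPM in RT libraries, against 1.45, 2.06 and 1.3 in HT libraries and 1.37, 3.67 and 2.69 in HT + RT libraries. FaDu libraries read 6.1, 5.61 and 4.69 CPM in controls, 8.37, 10.9 and 8.91 with RT, 3.78, 3.65 and 2.69 with HT and 3.73, 4.15 and 4.04 with both. RT libraries were above all others of their type, and every HT library was below every control. The log2 fold change after HT was -1.15 (SE 0.24, adjusted p 0.00432) in SAS and -0.67 (SE 0.19, adjusted p 0.0418) in FaDu, and HT + RT over RT gave -1.34 (SE 0.27, adjusted p 0.00363) and -1.21 (SE 0.15, adjusted p 0.00114). The rise after RT, 0.89 (SE 0.18, adjusted p 0.156) in SAS and 0.78 (SE 0.16, adjusted p 0.33) in FaDu, did not pass the threshold. RPL23A changed by 0.13 in SAS after HT. All countable bases of AC010761.1 lie inside opposite-strand genes.

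GABPB1-AS1 fell in FaDu after heating. It overlaps the start of GABPB1, which codes for a subunit of an ETS-family factor. FaDu controls read 10.6, 10.7 and 9.99 CPM and HT libraries 5.87, 4.43 and 5 CPM, while SAS read 5.45, 6.79 and 6.45 and 6.19, 8.48 and 7.74 CPM. The FaDu groups were apart and the SAS groups overlapped. The change was -1.01 (SE 0.14, adjusted p 0.00195) in FaDu and 0.27 (SE 0.17, adjusted p 0.284) in SAS, a difference of -1.25 (SE 0.22, adjusted p 0.00323). The FaDu call was lost with at least 10 counts in every library (-0.99) and without FaDu HT replicate 2 (-0.91) or FaDu Control replicate 2 (-0.99). HT + RT over RT gave -1.17, and GABPB1 changed by -0.09 after HT. ASH1L-AS1, beside the start of the histone methyltransferase gene ASH1L, fell in irradiated FaDu spheroids from 4.88, 6.39 and 6.64 to 2.26, 2.1 and 2.94 CPM, by -1.24 (SE 0.20, adjusted p 0.00366), and changed by -0.24 in FaDu after HT, which was not called. AC015712.2, beside the end of the retinal dehydrogenase gene ALDH1A3, fell in SAS after HT from 3.9, 6.5 and 6.1 to 2.37, 2.95 and 1.79 CPM, by -1.20 (SE 0.25, adjusted p 0.00464). It was not called in irradiated SAS spheroids (-0.80) or in FaDu after HT (0.39).

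Most members called higher with heat in unirradiated spheroids were also called in irradiated spheroids, as were most of all genes called higher. These comparisons share no library. Of the FaDu members called higher, 20 were in both lists, 76.9% of the 26 after HT and 71.4% of the 28 in irradiated spheroids. In SAS 21 were in both, 63.6% of 33 and 77.8% of 27. Over all genes called higher these shares were 75.7% and 68.2% in FaDu and 76.5% and 70.6% in SAS. Between the types 7 were shared after HT, 26.9% of the FaDu list and 21.2% of the SAS list, and 12 in irradiated spheroids, 42.9% and 44.4%. Over all genes it was 33.7% and 28.9% after HT and 34.2% and 30% in irradiated spheroids. Of members called in both FaDu comparisons 12 were called in neither SAS comparison, and 10 were called in both SAS comparisons and neither FaDu comparison. These are 60% of 20 and 47.6% of 21, against 54.5% and 60.8% over all genes. In all, 58 members (19.3%) were called higher and 9 (3%) lower in at least 1 of the 4, against 9.39% and 1.75% of all genes tested. Ranked by control libraries it was 36 (12%) and 12 (4%).

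**Figure D4:**
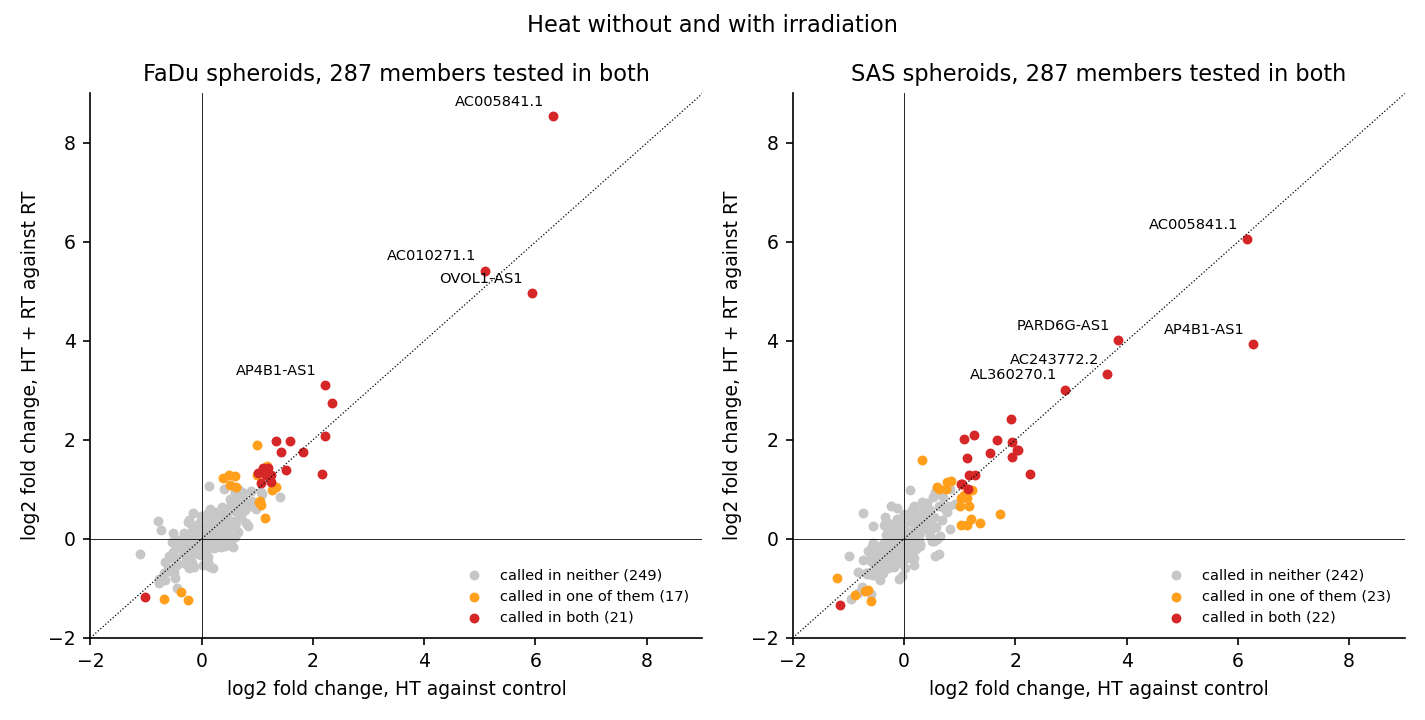
Log2 fold change of HT over control (horizontal) against HT + RT over RT (vertical) for members tested in both, FaDu left and SAS right, with colours for calls in both, in 1 or in neither. In FaDu 21 of 287 members were called in both and 17 in 1, and in SAS 22 and 23 of 287; the fitted value of AC005841.1 in irradiated FaDu rests on 2 counts after RT and is no bound.

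The test of the difference between types, FaDu minus SAS, called 12 of 300 members higher and 8 lower for HT, against 1.25% and 1.49% of all genes. In irradiated spheroids 11 were higher and 9 lower, against 1.34% and 2.02%. The total of 20 in irradiated spheroids was 12 without SAS RT replicate 2 and 12 with members ranked by control libraries. The total of 20 for HT was 13 with at least 10 counts in every library. With the replicate block the totals were 29 for HT and 27 in irradiated spheroids. AFAP1-AS1 was among the members called for HT. It is near 0 in SAS, with 0.16, 0.399 and 0.234 CPM in controls and 1.27, 0.738 and 0.65 CPM after HT, and abundant in FaDu, with 110, 116 and 115 and 113, 133 and 119 CPM. The SAS groups were apart by 1.72 (SE 0.48, adjusted p 0.0227), and the difference was -1.57 (SE 0.38, adjusted p 0.0221). In irradiated spheroids neither was called, with 0.51 in SAS and a difference of -0.28. The SAS call after HT was lost with DESeq2 (1.75) and without SAS HT replicate 1 (1.38), SAS Control replicate 1 (1.45) or SAS Control replicate 3 (1.65), and the call of the difference without SAS HT replicate 1 (-1.29), SAS Control replicate 1 (-1.35) or SAS Control replicate 3 (-1.55).

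The partners of the higher members were read in the same comparisons, and most did not pass the threshold. After HT in FaDu, 24 of the 26 had a partner that was tested, and 3 of those partners were also higher, 0 lower and 21 not called. In SAS it was 8 higher, 0 lower and 21 not called of 29. These are 12.5% and 27.6%, beside 3.16% and 6.85% of the partners of all members and 2.81% and 3.9% of protein-coding genes. In irradiated spheroids 5 of 26 partners were higher in FaDu (19.2%, beside 4.72% and 3.01%) and 9 of 25 in SAS (36%, beside 7.23% and 4.55%), with 0 lower in each. These shares rest on few partners and were not tested against each other. The ratio of each antisense gene to its partner was then tested with limma at the same thresholds. After HT it was higher for 26 of 250 member pairs in FaDu, against 12.0% of all antisense pairs, and lower for 5, against 1.65%. In SAS it was higher for 11 of 246, against 4.96%, and lower for 5, against 1.28%. HT + RT over RT gave 20 of 252 higher in FaDu, against 12.6%, and 7 lower, against 2.0%. In SAS it gave 11 of 247 higher, against 4.48%, and 8 lower, against 2.09%. With a pseudocount of 2 CPM 14 member ratios changed in FaDu in place of 31 and 8 in SAS in place of 16 after HT, and in irradiated spheroids 11 in place of 27 and 11 in place of 19.

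**Figure D5:**
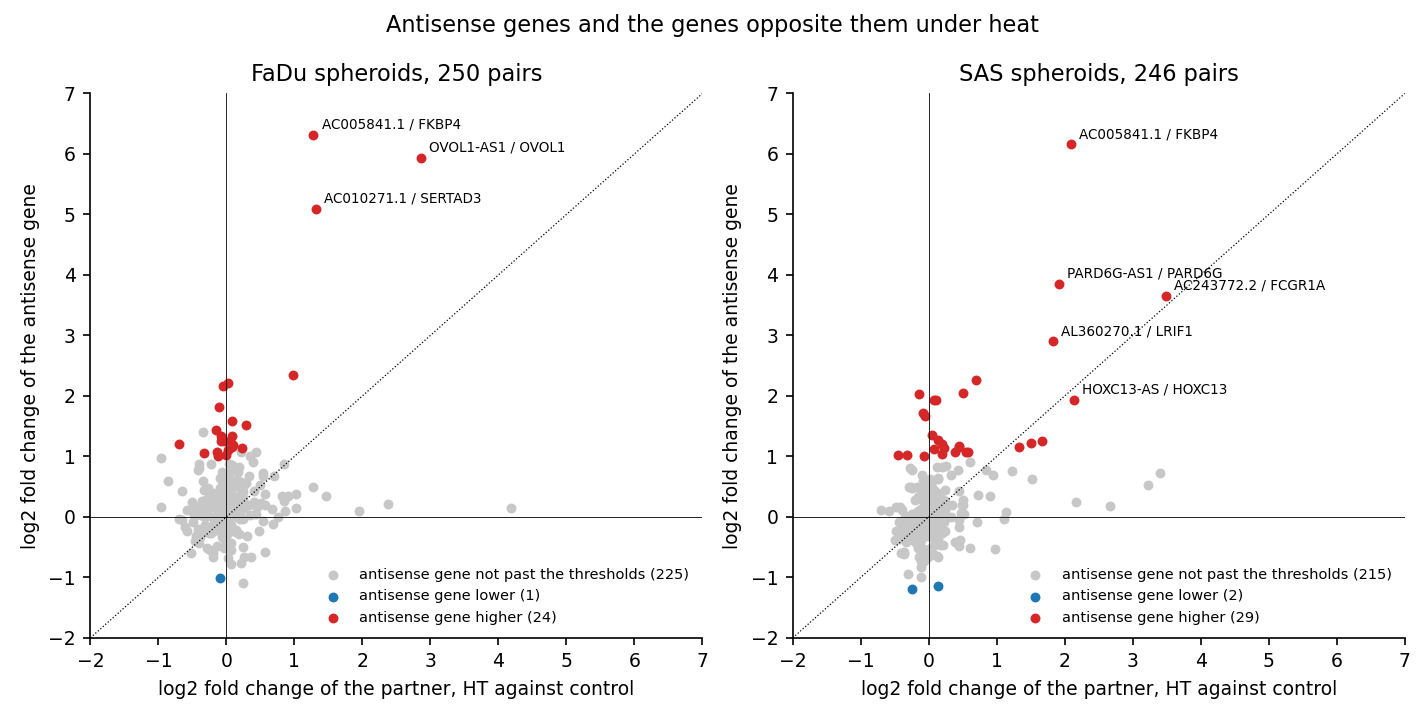
Log2 fold change after HT of each member (vertical) against that of its partner (horizontal), for 250 pairs in FaDu and 246 in SAS; points are coloured by the call of the member. Members were coloured by their own change, so their place above the line of equal change follows from that choice.

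The calls with heat were also split by place. With all countable bases inside a gene of the other strand, 15 of 72 members tested (20.8%) were higher after HT in FaDu, with some of them inside 9 of 146 (6.16%), and with none 2 of 70 (2.86%). In SAS it was 10 of 72 (13.9%), 16 of 146 (11%) and 7 of 70 (10%). In irradiated spheroids it was 23.3%, 6.21% and 2.82% in FaDu and 15.1%, 7.59% and 7.14% in SAS, where 5.48%, 0% and 1.43% were lower. Neither the split nor its difference between types was tested. With members ranked by control libraries the shares higher after HT were 7.69%, 4.05% and 1.35% in FaDu, the first of them 5 of 65 members, and 9.86%, 7.53% and 8.11% in SAS. In irradiated spheroids they were 10.6%, 3.42% and 2.7% in FaDu and 11.3%, 4.11% and 4.05% in SAS, and ranked by RT libraries 11.1%, 3.36% and 1.35% in FaDu and 10.4%, 6.8% and 7.89% in SAS after HT. Among all antisense genes inside such bodies, members included, 76 of 305 (24.9%) were higher in FaDu and 35 of 248 (14.1%) in SAS. The part of unspliced partner RNA in these counts was not tested.

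Members whose partners belong to the heat shock list were few. The list held 41 genes, of which 19 of 40 tested were higher after HT in FaDu and 24 of 40 in SAS, with 0 lower in either. HT + RT over RT gave 20 and 27. Of the list, FKBP4 and ZFAND2A are partners of a member. ZFAND2A, a zinc-finger gene induced by heat and arsenite, rose by 4.18 in FaDu and 3.40 in SAS after HT. AC091729.3, which overlaps its start, read 8.46, 9.13 and 8.84 CPM in FaDu controls and 10.5, 9.39 and 8.85 CPM after HT, and in SAS 4.43, 5.36 and 5.98 and 7.98, 8.43 and 9.42 CPM. FaDu heated libraries were near the controls and SAS heated libraries above them, with changes of 0.14 (SE 0.12, adjusted p 0.491) and 0.72 (SE 0.16, adjusted p 0.00696). Of 31 immediate early genes, none of which is the partner of a member, 27 were higher after HT in FaDu and 17 in SAS, where 1 was lower. In irradiated spheroids it was 24 in FaDu and 12 in SAS, where 1 was lower.

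Irradiation changed few members. AC112907.3 overlaps the start of EIF4A2, which codes for an RNA helicase of translation initiation. It read 2.67, 3.36 and 3.99 CPM in SAS controls and 8.97, 11.2 and 7.8 CPM after RT, against 1.84, 1.07 and 2.1 and 1.64, 3.35 and 2.7 CPM in FaDu. The SAS groups were apart, by 1.48 (SE 0.20, adjusted p 0.0329), and the FaDu groups overlapped. It was the only one of 284 members tested that edgeR called after RT in SAS, against 0.0272% of all genes, with 21 members (7.39%) and 5.68% of all genes at an unadjusted p under 0.05 and 2 members called by DESeq2. The call was lost, and the count of members became 0, without SAS RT replicate 1 (1.51), SAS RT replicate 2 (1.33), SAS Control replicate 1 (1.34) or SAS Control replicate 2 (1.49). EIF4A2 changed by 0.16. In FaDu edgeR called 0 of 285 members after RT, against 0.00643% of all genes. At an unadjusted p under 0.05 there were 15 (5.26%), against 5.09% of all genes, and DESeq2 called 0 members. The replicate block gave 1 member in FaDu and 2 in SAS after RT, and so did fits with no filter.

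HT + RT over HT asks what irradiation adds in heated spheroids. AC112907.3 read 2.78, 3.27 and 3.3 CPM in SAS HT libraries and 6.59, 5.5 and 3.96 CPM with RT added, higher in each of these, with a change of 0.76 (SE 0.21, adjusted p 0.687). In edgeR 0 of 290 members were called in FaDu and 0 of 289 in SAS, against 0% of all genes in both. At an unadjusted p under 0.05 there were 6 (2.07%) and 19 members (6.57%), against 2.24% and 4.39% of all genes, and DESeq2 called 0 in each.

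The widest differences lay between the types before treatment. AFAP1-AS1, one of the most abundant members in FaDu, differed between the controls by 8.75 (SE 0.15, adjusted p 1.62e-11), FaDu over SAS, while its partner AFAP1, which codes for an actin filament protein, was lower in FaDu by -1.86. KRT7-AS lies inside the keratin gene KRT7 and read 18, 21 and 28.1 CPM in SAS controls and 0.158, 0.255 and 0.206 CPM in FaDu controls. The types were far apart, by -6.69 (SE 0.28, adjusted p 6.53e-09), and KRT7 differed by -8.05. AL365181.3, inside the brevican gene BCAN, read 26.9, 39.1 and 29.1 CPM in SAS and 0.526, 0.204 and 0.0822 CPM in FaDu, a difference of -6.89 (SE 0.32, adjusted p 1.2e-08). Its neighbour AL590666.2 differed by -6.39 and AL121929.2, in the invadopodia gene SH3PXD2A, by -6.56. FGD5-AS1 read 102, 109 and 108 CPM in FaDu and 282, 292 and 309 CPM in SAS, and GPRC5D-AS1 5.84, 8.06 and 7.69 and 44.8, 41 and 46.3 CPM. Both were higher in every SAS control, by -1.44 (SE 0.06, adjusted p 9.87e-09) and -2.58 (SE 0.12, adjusted p 1.68e-08).

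Several members had almost no reads in the controls of a type. AC004540.2 had 755 counts in FaDu and 2 in SAS, a ratio of 320 with a 95% counting interval of 88.2 to 2644. TSPEAR-AS2 had 284 and 1, a ratio of 240 (42.8 to 9532), and FOXN3-AS1 277 and 1, a ratio of 235 (41.8 to 9298). TGFB2-AS1, head-to-head with the growth factor gene TGFB2, had 548 counts in SAS and 1 in FaDu, a ratio of 647 (116 to 25606). These intervals cover counting error only. The partners differed in the same direction for TSPEAR (5.04), FOXN3 (7.35) and TGFB2 (-8.22), while SNX10, the partner of AC004540.2, changed by 0.43 and was not called. Of the 296 members tested between the controls, edgeR called 76 higher in FaDu, against 21.2% of all genes, and 47 lower, against 16.9%. The groups of every member called in a comparison of a pair of groups did not overlap. Calls at these thresholds select for such groups, and the share over all called genes was not counted.

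Over the 13 comparisons 171 of the 300 members (57%) were called at least once and 129 in none, against 41.5% of all genes tested in any. Ranked by control libraries it was 53%. In at least 1 heat comparison 67 (22.3%) were called, against 11.1% of all genes tested, and 48 (16%) when ranked by control libraries.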

How the data were processed

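Total RNA of 24 spheroid libraries had been sequenced from directional libraries on a NovaSeq instrument. The values used were whole-number read counts per gene in 7 tables deposited by the authors, 1 table per comparison. The 18 repeated control columns were identical, and the authors' 7 normalized tables were not used here. The aligner, the counting program and the strand setting are not given in the sources used here, and the processing notes name a mouse build although the identifiers are human. Gene types and positions came from GENCODE release 29, which lacked 602 of 57500 genes (0.0217% of counts).

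Each of 13 comparisons was fitted over all genes of its groups with edgeR 4.0.16 in R 4.3.3, by TMM scaling, filterByExpr with a minimum count of 10, the quasi-likelihood test and Benjamini-Hochberg adjustment. Ratios to the partner were tested with limma 3.58.1 on log2 of CPM plus 0.5. Each gene printed with an adjusted p comes from edgeR unless limma is named. Alternatives were DESeq2 1.42.0, RLE size factors, no filter, at least 10 counts in every library, a replicate block, adjusted p alone, members ranked by control libraries, a pseudocount of 2 CPM and leaving out each library. Members ranked by RT libraries and FaDu replicate 1 left out of both groups were added after seeing the data. Replicates with the same number moved together, after the group means were removed, in the FaDu comparisons and in all SAS comparisons but HT against control, so the block is given as an alternative.

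Named genes were the 10 highest count sums, the 3 on each side of the threshold, up to 8 highest and 4 lowest calls per heat comparison, every call after RT, the 5 highest and 5 lowest calls between controls and in each interaction, members whose partner is in the heat shock or immediate early list, and partners and upstream neighbours. Marker lists covered squamous epithelium, fibroblasts, leukocytes and endothelium. The members and lists were chosen with earlier results of these data known. Promoters came from RefSeq and were searched for GAANNTTC, TTCNNGAA and their 3-unit form with Python 3.11.15.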

Additional observations from a re-analysis of the deposited data

Results flagged for a closer look

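The values here are log2 differences in the effect of heat, FaDu minus SAS, and each passed the thresholds in a direct test of that difference with edgeR. For HT against control the difference was positive for AC010271.1 (5.79), OVOL1-AS1 (4.45), AC003681.1 (2.26), AL121929.2 (2.13) and AC107375.1 (2.06). It was negative for AP4B1-AS1 (-4.03), AC243772.2 (-2.45), AL360270.1 (-2.21), ZNF436-AS1 (-2.01) and AFAP1-AS1 (-1.57). The call of OVOL1-AS1 was lost without SAS Control replicate 3 (3.28), that of AC010271.1 without SAS Control replicate 3 (5.33), and that of AFAP1-AS1 without SAS HT replicate 1 (-1.29), SAS Control replicate 1 (-1.35) or SAS Control replicate 3 (-1.55). The call of AL121929.2 was lost without FaDu HT replicate 2 (1.96), FaDu HT replicate 3 (1.88), FaDu Control replicate 2 (1.96) or FaDu Control replicate 3 (2.27), and that of AC107375.1 without FaDu HT replicate 2 (1.70), FaDu Control replicate 3 (1.96) or SAS Control replicate 3 (1.84). In SAS, AC010271.1 had 8 counts over the controls and 5 over the HT libraries, and OVOL1-AS1 10 and 30, so the size of their differences rests on few SAS counts. Both became members through heated libraries and were not among the members ranked by control libraries. The size of the AP4B1-AS1 difference likewise rests on few counts in the SAS controls.

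For HT + RT against RT the difference was positive for AC010271.1 (5.72), OVOL1-AS1 (3.48), AC003681.1 (2.05), AC023157.3 (1.85) and AL357060.1 (1.70). It was negative for PARD6G-AS1 (-3.35), AL360270.1 (-2.53), HOXC13-AS (-2.45), INTS6-AS1 (-1.88) and AC243772.2 (-1.87). SAS counts were again few, 8 after RT and 6 after HT + RT for AC010271.1 and 13 and 35 for OVOL1-AS1. The call of OVOL1-AS1 was lost without SAS RT replicate 3 (2.70), that of AC010271.1 without SAS RT replicate 2 (5.65) and that of AC243772.2 without FaDu RT replicate 2 (-1.38). The call of AC003681.1 was lost without FaDu HT + RT replicate 2 (1.81), FaDu HT + RT replicate 3 (2.0), FaDu RT replicate 3 (2.05), SAS HT + RT replicate 1 (2.04), SAS HT + RT replicate 2 (1.95), SAS HT + RT replicate 3 (2.12) or SAS RT replicate 2 (1.55). AC023157.3 lost its call without FaDu HT + RT replicate 2 (1.66), FaDu HT + RT replicate 3 (1.83), FaDu RT replicate 2 (1.90), SAS HT + RT replicate 1 (1.69), SAS HT + RT replicate 2 (1.85), SAS RT replicate 2 (1.86) or SAS RT replicate 3 (1.62). AL357060.1 lost its call without FaDu HT + RT replicate 2 (1.63), FaDu HT + RT replicate 3 (1.67), FaDu RT replicate 2 (1.51), FaDu RT replicate 3 (1.56), SAS HT + RT replicate 1 (1.73), SAS HT + RT replicate 2 (1.78), SAS HT + RT replicate 3 (1.56), SAS RT replicate 2 (1.86) or SAS RT replicate 3 (1.27).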

How the results depend on the processing

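With no fold requirement, 58 members were called in FaDu and 63 in SAS after HT, 64 and 65 after HT + RT against control, 69 and 75 for HT + RT over RT and 188 between the controls. The share of all genes called in this way was not counted. At an unadjusted p under 0.05 in edgeR there were 33% of members and 30.8% of all genes in FaDu after HT. It was 34% and 35.5% in SAS, and 65.2% and 76.6% between the controls. Ranking members by control libraries gave 14 after HT, 18 after HT + RT and 21 for HT + RT over RT in FaDu, and 12 for the difference between types in irradiated spheroids. Ranking by RT libraries, added after seeing the data, gave 14 in FaDu after HT. Asking for 10 counts in every library gave 13 for the difference between types after HT.

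After RT in FaDu, 1 member was called without a filter and 1 with the replicate block, against 0. In SAS it was 2 with DESeq2, 2 without a filter and 2 with the block, against 1. The cause was not tested. Same-numbered replicates did not move together in every pair for HT against control in SAS, between the controls or in the differences between types, where the replicate block gave 35, 122, 29 (HT) and 27 (irradiated) members, against 35, 123, 20 and 20. Where the pairs did move together the block gave 32, 34 and 35 members in FaDu for HT, HT + RT and HT + RT over RT, against 27, 32 and 32, and 33 and 36 in SAS for HT + RT and HT + RT over RT, against 31 and 32. It ended no call of a named gene there. A pseudocount of 2 CPM gave 14 and 8 changed ratios in FaDu and SAS after HT and 11 and 11 in irradiated spheroids. It damps ratios of low counts.

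Leaving out each library in turn gave 0 to 0 called members after RT in FaDu and 0 to 1 in SAS, 20 to 31 and 27 to 33 after HT, 24 to 38 and 26 to 32 after HT + RT, and 28 to 39 and 27 to 34 for HT + RT over RT. HT + RT over HT gave 0 to 0 in both types, the controls 122 to 128, and the differences between types 14 to 21 after HT and 12 to 22 in irradiated spheroids. Changed ratios ran from 27 to 33 and 16 to 19 after HT, and 26 to 37 and 18 to 21 in irradiated spheroids.

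With FaDu replicate 1 left out of both groups, 36 members were called for HT + RT over RT in FaDu, 30 of them shared with the 32. Of 226 called values of named genes, 181 kept the call in every alternative and 45 lost it in at least 1. Of 2671 alternative values, 176 lost the call and 0 changed sign.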
